A study of Mus musculus with 7 samples.

Results

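The 10 genes described here encode the core of the Crumbs, Par and Scribble complexes, which set apical against basolateral identity in epithelial cells. They are Crb3 and Patj of the Crumbs complex, Pard3, Pard6b, Prkci and Prkcz of the Par complex, and Scrib, Dlg1, Llgl1 and Llgl2 of the Scribble module. They were chosen by name, with earlier results of these data known. They were 10 of 53379 gene IDs in the count tables, and all 10 were among the 14610 genes with enough reads to be tested. RNA was sequenced from EpCAM-sorted endometrial epithelial cells of CD-1 mice. The 4 mutant libraries were each from 1 mouse aged 120 days with the genotype LtfCre 0/+; Brg1 fl/fl. In these mice Cre is driven by Ltf (lactoferrin), a gene of the uterine epithelium, and Brg1, the SWI/SNF chromatin remodelling ATPase encoded by Smarca4, is floxed on both alleles. The 3 control libraries came from pooled CD-1 mice labelled wild-type, with no Cre or floxed allele named and no age given, and are earlier samples that were reanalysed. The sort protocol is given for all samples, but only the source names of the mutants mention EPCAM. The comparison asks how loss of Brg1 from the endometrial epithelium affects these transcripts. Differences of genotype cannot be told apart from those of library set and of pooling.

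In polarised epithelia the Crumbs complex sits at the apical membrane just above the tight junctions, and the Par complex of Pard3, Pard6 and atypical protein kinase C carries the kinase activity of the apical side. The Scribble module occupies the basolateral membrane. Atypical protein kinase C phosphorylates Lgl proteins and so keeps them off the apical membrane, and Lgl in turn can hold Pard6 and the kinase in an inactive complex. In the uterus this order separates the lumen, where the embryo attaches, from the stroma.

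Levels are counts per 1000000 gene reads (CPM) after TMM scaling, which corrects library sizes for differences in composition, and fold changes are mutant against control on the log2 scale. Gene reads ranged from 12436971 to 13364080 in mutants and from 21372036 to 25862245 in controls. The 10 genes had from 248 reads (Prkcz in 1 mutant library) to 10954 reads (Prkci in 1 control library). Smarca4, the targeted gene, had 56.7 to 105.4 CPM in mutants against 245 to 279 CPM (log2 fold change −1.64 ± 0.23 SE, edgeR adjusted p = 0.00967). The sort antigen Epcam was high in every library, with 574 to 743 CPM in mutants against 823 to 966 CPM (−0.38 ± 0.18 SE, edgeR adjusted p = 0.206). Mutant replicate 1 stood apart from the other mutants, with correlations of log2 CPM across genes of 0.811 to 0.887 to them, against 0.893 to 0.961 among the others. Ltf, whose promoter drives Cre, was at 82.7 CPM in that library, at 1146 to 2023 CPM in the other mutants and at 2940 to 3687 CPM in controls. Summed over 8 epithelial markers, the level was 7622 to 11128 CPM in mutants against 15573 to 18985 CPM. Of the 8, 2 (Cdh1 and Krt8) were called lower, beside 6.18% of all tested genes. The 8 stromal markers summed to 166 to 481 CPM against 547 to 698 CPM, with 1 of the 8 (Dcn) called lower. Sums for the 6 immune markers, 113 to 289 CPM against 174 to 272 CPM, overlapped. Of these, Cd3e, a T cell gene, had 0 to 2.52 CPM in mutants against 7.09 to 18.5 CPM in controls. Its ranges were apart but it did not pass (−4.02 ± 1.14 SE, edgeR adjusted p = 0.0617). Ranges of the other tested immune markers overlapped. Smooth muscle markers summed to 7.52 to 82.0 CPM against 67.1 to 107 CPM. Endothelial markers summed to 4.22 to 15.9 CPM against 14.5 to 17.4 CPM. Mesothelial markers summed to 7.67 to 27.4 CPM against 25.9 to 30.5 CPM. These sums also overlapped. The part of these differences in the results on the 10 genes was not tested. In these bulk libraries, fewer epithelial cells, lower marker levels per epithelial cell and the scaling of the libraries cannot be told apart. TMM factors were 1.03 to 1.23 in mutants and 0.852 to 0.886 in controls, and a higher factor lowers the CPM of a library.

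Of the 10 polarity genes, 5 were lower in mutants and 0 were higher (edgeR, adjusted p under 0.05 over all tested genes). Those lower were Crb3, Pard6b, Prkci, Llgl2 and Scrib, at least 1 gene from each complex. Among all 14610 tested genes, 11.5% were called, 6.18% lower and 5.37% higher. The median log2 fold change of the 10 genes was −0.57, against 0.06 over all tested genes. At an unadjusted p under 0.05, 6 of the 10 were lower and 0 higher (edgeR), against 31% of all tested genes, 14.6% lower and 16.4% higher. DESeq2 called 6 lower and 0 higher, against 23.4% of all genes called, 11.2% lower and 12.2% higher. The ranges of mutants and controls did not overlap for 6 genes, all lower in mutants, the 5 called genes and Pard3. Of all tested genes, 31.5% had ranges without overlap, 16.1% with the mutants lower.

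**Figure D1:**
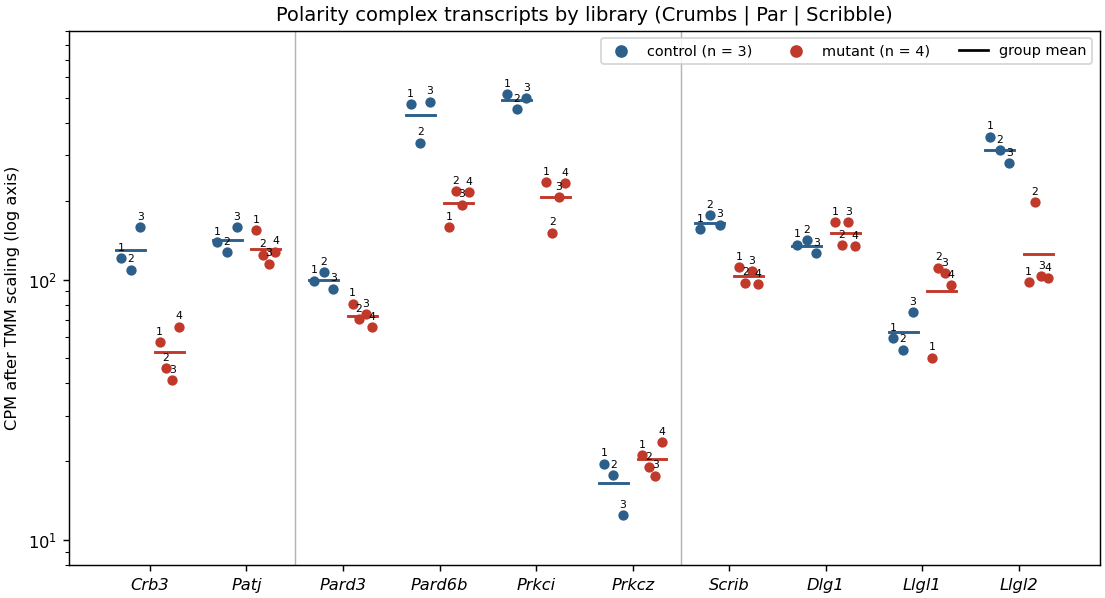
Each point is 1 library, numbered by replicate, on a log axis of CPM after TMM scaling, for the 10 genes ordered by complex; bars are group means (3 controls in blue, 4 mutants in red). For Crb3, Pard3, Pard6b, Prkci, Scrib and Llgl2 every mutant lies below every control, and for the other 4 genes the groups overlap.

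Sequence upstream of the start is shown for the 3 called genes with a RefSeq promoter entry (GRCm38.p6), since these genes were lower together. Entries matched 8 of the 10 genes, and Llgl2 and Scrib had none. Only bases that no GENCODE M21 exon covers are printed, on the plus strand, with capitals at matches to any of 4 motifs on either strand. The motifs were CACCTG, the E-box bound by Snail and Zeb repressors, GGGCGG, the GC box, TGANTCA, the AP-1 site, and ACCGGTT, bound by Grhl factors. The stretch for Crb3 lies before a RefSeq start that is inside the annotated gene, in intronic sequence, and those for Pard6b and Prkci lie upstream of the gene.
Crb3, chr17:57061951-57062140: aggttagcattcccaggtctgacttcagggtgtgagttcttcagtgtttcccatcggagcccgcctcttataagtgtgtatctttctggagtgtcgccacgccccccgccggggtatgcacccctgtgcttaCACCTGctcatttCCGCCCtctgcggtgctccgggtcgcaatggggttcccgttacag
Pard6b, chr2:168080754-168081003: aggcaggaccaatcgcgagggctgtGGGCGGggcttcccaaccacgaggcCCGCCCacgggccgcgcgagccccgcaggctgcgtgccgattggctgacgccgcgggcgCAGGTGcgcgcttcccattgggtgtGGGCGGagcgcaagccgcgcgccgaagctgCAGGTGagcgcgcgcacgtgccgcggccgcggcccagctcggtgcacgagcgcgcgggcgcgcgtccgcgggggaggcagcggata
Prkci, chr3:30995521-30995746: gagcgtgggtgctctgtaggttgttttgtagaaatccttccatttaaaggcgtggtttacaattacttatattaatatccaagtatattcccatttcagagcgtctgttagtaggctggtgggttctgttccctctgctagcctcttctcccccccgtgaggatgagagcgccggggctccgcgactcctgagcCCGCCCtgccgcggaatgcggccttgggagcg
The Crb3 stretch held 1 E-box and 1 GC box, that of Pard6b 2 E-boxes and 3 GC boxes, and that of Prkci 1 GC box, and none of these matches overlapped. With the exonic bases included, both 250-base windows of Crb3 held 3 E-boxes and 3 GC boxes, at 63.2% and 64% GC. These windows overlap, and the sites in them are the same. The AP-1 and Grhl letters did not occur in these stretches. In the 250 bases before each RefSeq start, the E-box occurred in 17.2% of 32851 windows, the GC box in 32.7%, the AP-1 letters in 6.75% and the Grhl letters in 0.831%. At least 2 E-boxes occurred in 2.06% of all windows. They occurred in windows of Crb3 and Pard6b and also of Pard3 and Prkcz, which were not called. Of the 17 windows of the 8 genes with an entry, 7 held an E-box and 10 a GC box, with both overlapping windows of Crb3 counted. GC content was 77.6% for the Pard6b stretch, 58.4% for Crb3 and 54.0% for Prkci, with a mean of 53.2% over all full windows. These matches describe letters and not binding.

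Within the Crumbs complex, the transmembrane subunit was lower and the scaffold was not called. Crb3 is the Crumbs protein of simple epithelia and anchors the complex in the apical membrane (chromosome 17, 57059105 to 57065918, plus strand, GRCm38). Mutant replicates 1 to 4 had 57.4, 45.8, 41.1 and 65.9 CPM, and control replicates 1 to 3 had 121, 109 and 159 CPM. The highest mutant library was well under the lowest control library, and mutant replicate 4 was nearest to the controls. Crb3 was thus 2.47-fold lower (−1.30 ± 0.23 SE, edgeR adjusted p = 0.0181). Crb3 made up 99.8% of the summed level per exon length of the 3 Crumbs genes in mutants and 99.8% in controls, with Crb1 and Crb2 close to 0, so the summed Crumbs level in mutants was 40.6% of that in controls.

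Patj, the multi-PDZ scaffold that binds Crumbs through Pals1 and links it to tight junctions (chromosome 4, 98395785 to 98719603, plus strand), had 155, 125, 115 and 128 CPM in mutants and 139, 127 and 159 CPM in controls. The groups overlapped, with mutant replicates 2 and 3 below the lowest control. Its log2 fold change was −0.12 (95% interval −0.52 to 0.28, edgeR adjusted p = 0.670), and the value turned positive with upper-quartile (0.019) and total count scaling (0.23). Pals1, encoded by Mpp5 and the adaptor between Crb3 and Patj, was lower, with 97.1 to 129.5 CPM in mutants against 177 to 206 CPM (−0.80 ± 0.16 SE, edgeR adjusted p = 0.0266). Mpp5 did not pass with total count scaling (−0.45, edgeR adjusted p = 0.0746) or without the filter on low counts (−0.83, edgeR adjusted p = 0.0604). The interval for Patj does not include changes as large as the estimates for Crb3 and Mpp5.

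In the Par complex, Pard6b and Prkci were lower. Pard6b is the adaptor through which Cdc42 acts on the kinase (chromosome 2, 168081004 to 168101203, plus strand). Its promoter stretch is the most GC-rich of those printed above. It was at 159, 219, 194 and 216 CPM in mutants and at 473, 336 and 483 CPM in controls. Mutant replicate 1 was lowest, control replicate 2 was the lowest control, and the groups stayed apart. Pard6b was 2.18-fold lower (−1.13 ± 0.21 SE, edgeR adjusted p = 0.0195). It held 92.1% ± 3.53 (SD, n = 4) of the summed Par6 level per length in mutants and 95.9% ± 0.736 (SD, n = 3) in controls. Its paralogues Pard6a (1.06 ± 0.38 SE, edgeR adjusted p = 0.112) and Pard6g (−0.48 ± 0.77 SE, edgeR adjusted p = 0.711) did not pass.

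Prkci encodes atypical protein kinase C iota, the catalytic subunit (chromosome 3, 30995747 to 31052959, plus strand). Mutants had 237, 152, 208 and 235 CPM and controls had 515, 452 and 498 CPM. Mutant replicate 2, which also had the least Smarca4, was lowest, and no mutant came near the controls. The fall was 2.35-fold (−1.23 ± 0.20 SE, edgeR adjusted p = 0.0149), the smallest adjusted p of the 10 genes. Prkcz, encoding the zeta form of the kinase (chromosome 4, 155260129 to 155361361, minus strand), was at 21.2, 19.0, 17.6 and 23.8 CPM in mutants and 19.6, 17.7 and 12.5 CPM in controls. The groups overlapped (0.30, 95% interval −0.24 to 0.84, edgeR adjusted p = 0.415). Prkcz shares 14.8% of its 50-base words with the locus Prkcz2, which had 0 to 8 reads per library, so its counts are uncertain to that extent.

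Pard3, the scaffold that recruits Pard6 and the kinase to junctions (chromosome 8, 127063893 to 127612286, plus strand), was at 80.9, 70.3, 73.4 and 65.7 CPM in mutants and 99.1, 106.7 and 92.2 CPM in controls. Every mutant lay below every control, with a small gap. The change did not pass the edgeR test (−0.45, 95% interval −0.81 to −0.10, edgeR adjusted p = 0.0953). It passed with DESeq2 (adjusted p = 0.0212), which called 11.2% of all tested genes lower, and with edgeR without mutant replicate 1 (adjusted p = 0.0449), a fit that called 14% of genes lower. Pard3 held 90.4% ± 6.06 (SD, n = 4) of the summed Par3 level per length in mutants and 90.1% ± 1.55 (SD, n = 3) in controls.

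In the Scribble module, Llgl2 and Scrib were lower and Dlg1 and Llgl1 were not called. Scrib is the leucine-rich-repeat and PDZ scaffold of the lateral membrane (chromosome 15, 76047158 to 76069784, minus strand). It was at 111, 97.3, 107.6 and 96.0 CPM in mutants and 156, 177 and 162 CPM in controls. The coefficient of variation was 7.33% in mutants, the smallest of the 10 genes there, and 6.71% in controls, and the groups were apart. The mean in mutants was 62.4% of that in controls (−0.68 ± 0.15 SE, edgeR adjusted p = 0.0305). With total count scaling Scrib did not pass, at −0.33 (edgeR adjusted p = 0.160), and without a filter on low counts its adjusted p was 0.0850 (edgeR). Dlg1, the membrane-associated guanylate kinase that binds near Scrib (chromosome 16, 31663443 to 31875129, plus strand), was at 167, 135, 167 and 135 CPM in mutants and 136, 141 and 126 CPM in controls. Its groups overlapped (0.16, 95% interval −0.21 to 0.54, edgeR adjusted p = 0.529).

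Llgl2, the Lgl protein that inhibits the Par complex basolaterally (chromosome 11, 115824049 to 115855780, plus strand), had the lowest log2 fold change of the 10 genes, within 1 SE of those of Crb3, Prkci and Pard6b. In mutants Llgl2 was at 97.9, 198, 103 and 101 CPM, and in controls at 354, 314 and 280 CPM. Mutant replicate 2 lay between the other mutants and the lowest control, while the other 3 mutants were close together. Llgl2 was 2.53-fold lower (−1.34 ± 0.29 SE, edgeR adjusted p = 0.0303). Without mutant replicate 2 the value was −1.64 (edgeR adjusted p = 0.0125). Llgl1, its paralogue (chromosome 11, 60699723 to 60714186, plus strand), was at 50.1, 111, 105.6 and 95.02 CPM in mutants and 59.7, 53.8 and 75.0 CPM in controls. Mutant replicates 2 to 4 were above all controls, and mutant replicate 1 was below them. With all libraries Llgl1 did not pass (0.53, 95% interval −0.16 to 1.21, edgeR adjusted p = 0.268). Without mutant replicate 1 it was higher (0.77, edgeR adjusted p = 0.0172), in a fit that called 15.5% of all genes higher. Exons of Llgl1 overlap those of Flii on the opposite strand. The counts used are stranded, and reads on the strand opposite to Llgl1 made up 0.686% to 0.953% of its reads in mutants and 0.877% to 2.08% in controls.

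**Figure D2:**
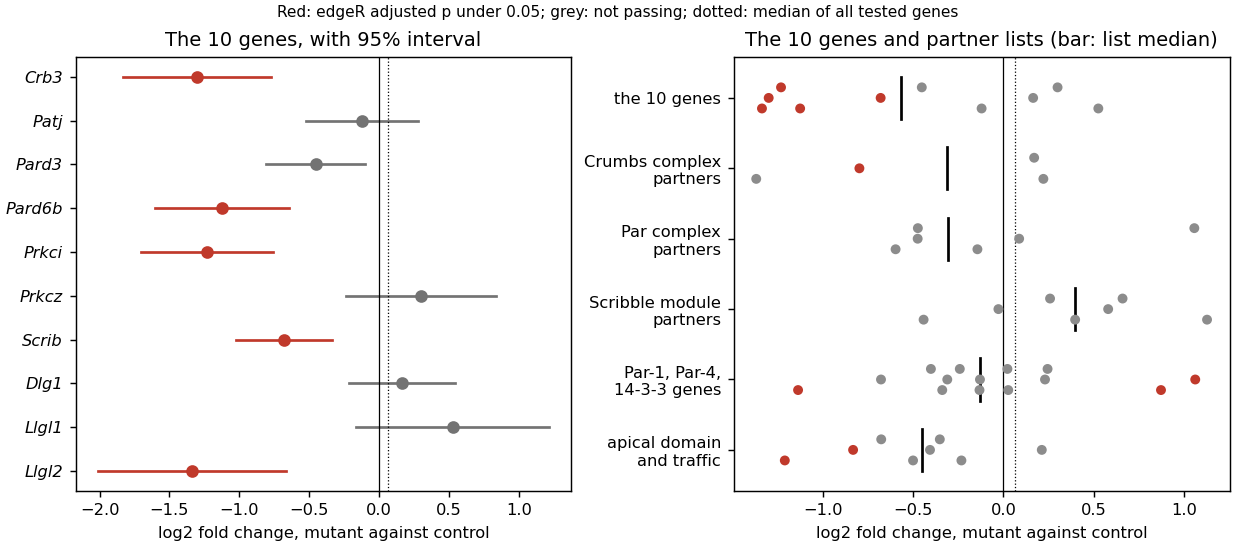
Left, log2 fold change of each of the 10 genes with its 95% interval from the edgeR fit; right, log2 fold changes of the 10 genes and of the tested genes of 5 partner lists, 1 point per gene, with the list median as a bar. Red marks edgeR adjusted p under 0.05 and the dotted line the median of all tested genes (0.06); Crb3, Pard6b, Prkci, Scrib and Llgl2 lie below 0 with their whole interval, as does Pard3, which did not pass.

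In both paralogue pairs among the 10 genes the ratios of the mutant and control libraries did not overlap, a difference that the test possible here cannot call. Scaling cancels in a ratio of reads from the same library, so these values do not depend on it. Each pair holds a gene called lower by itself, Prkci or Llgl2, so the ratios are not separate from those calls. The share of all gene pairs with ratios apart was not determined. Of single tested genes, 31.5% had ranges without overlap. The log2 ratio of Prkci to Prkcz reads was 3.48, 2.99, 3.56 and 3.30 in mutants and 4.71, 4.68 and 5.32 in controls. All mutants were below all controls, with a difference of means of −1.57 (exact two-sided permutation test over libraries, p = 0.0571). The log2 ratio of Llgl1 to Llgl2 reads was −0.97, −0.83, 0.04 and −0.09 in mutants and −2.57, −2.54 and −1.90 in controls. All mutants were above all controls, with a difference of means of 1.88 (exact two-sided permutation test, p = 0.0571). With 4 against 3 libraries 0.0571 is the smallest p this test can give, so neither ratio could pass 0.05, also after adjustment over the 2 ratios tested (adjusted p = 0.0571 for both, exact permutation test).

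Per exon length, Prkci made up 91.9% ± 1.34 (SD, n = 4) of the summed level of both kinase genes in mutants and 97.1% ± 0.653 (SD, n = 3) in controls. The summed level of both genes in mutants was 44.9% of that in controls. Llgl1 made up 33.8% to 50.5% of the summed Lgl level in mutants, against 14.4% to 21.1% in controls, so the share held by Llgl2 went from a mean of 83.3% to 57.9%. The summed Lgl level per length was 30.5 to 63.7 CPM per kb in mutants and 73.2 to 85.4 CPM per kb in controls, which did not overlap. Of single tested genes, 16.1% had ranges apart with the mutants lower. Mutant replicate 2 had the highest sum among the mutants and mutant replicate 1 the lowest.

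**Figure D3:**
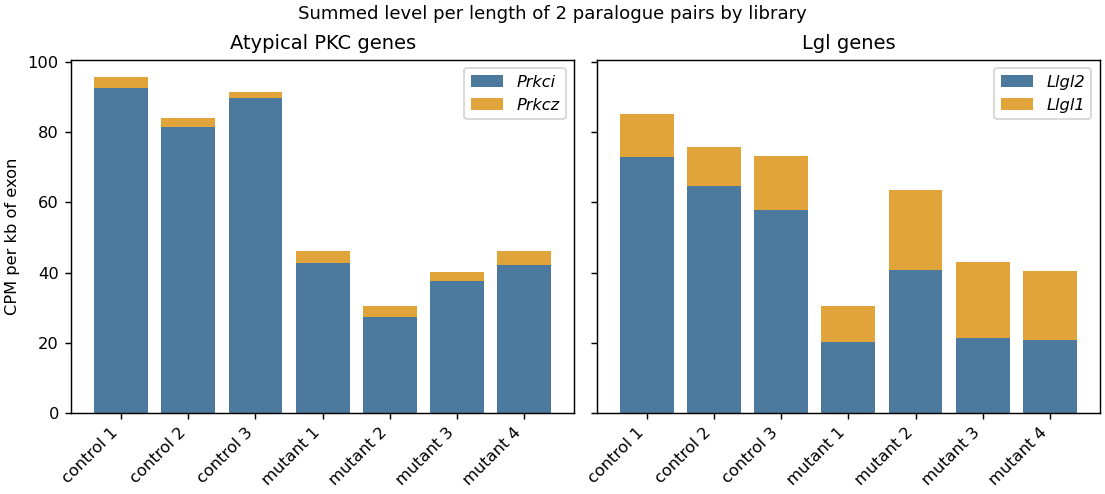
Stacked bars give the level per exon length (CPM per kb) of Prkci and Prkcz on the left and of Llgl2 and Llgl1 on the right, 1 bar per library. Prkci fills most of every bar, while Llgl1 takes 33.8% to 50.5% of the bar in mutants and 14.4% to 21.1% in controls.

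Ordered by mean level per exon length in controls, the 10 genes ran from Pard6b (126.7 ± 24.2 CPM per kb, SD, n = 3) through Prkci (88.0 ± 5.85), Crb3 (82.8 ± 16.5), Llgl2 (65.2 ± 7.66), Scrib (25.6 ± 1.72), Llgl1 (12.9 ± 2.25), Dlg1 (12.5 ± 0.714), Patj (10.9 ± 1.23) and Pard3 (6.85 ± 0.497) to Prkcz (2.62 ± 0.586). The ranges of Prkci and Crb3, of Crb3 and Llgl2, of Llgl1 and Dlg1, and of Dlg1 and Patj overlapped, so those neighbours are not ordered by these libraries. The 5 genes called lower were the 5 with the highest control levels per length. The control libraries enter both the order and the comparison, so this is given as a description. In mutants Pard6b remained highest (58.0 ± 8.16 CPM per kb, SD, n = 4) and Prkcz lowest (3.23 ± 0.423). Ranges of neighbours overlapped from Prkci down to Dlg1. The highest mean level was 48.3 times the lowest in controls and 18.0 times in mutants. Lengths are the summed exons of each gene in GENCODE M21, and an expressed isoform can be shorter.

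**Figure D4:**
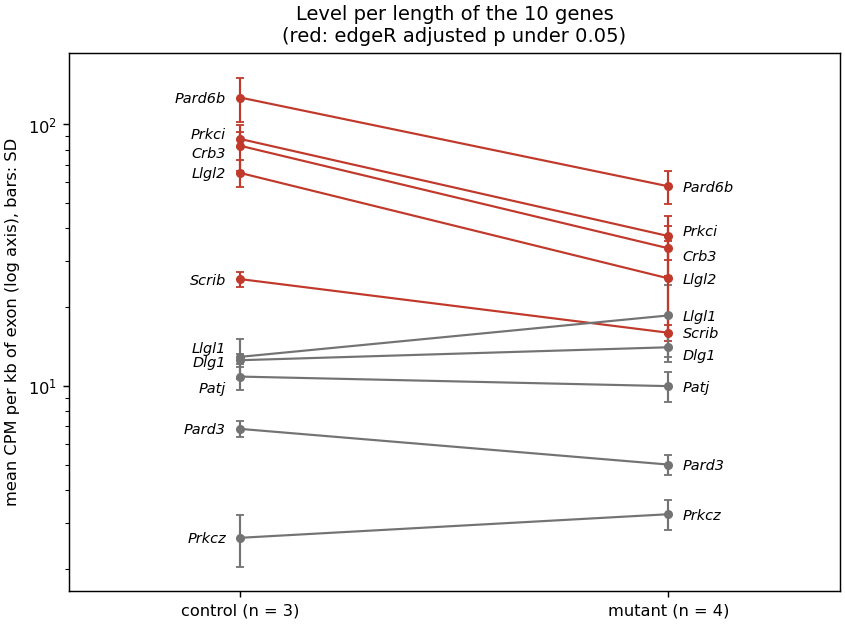
Mean level per exon length (CPM per kb, log axis) of each gene in controls (n = 3) and mutants (n = 4), with SD bars; red lines are genes with edgeR adjusted p under 0.05. The 5 red genes start above the other 5 in controls, from 25.6 to 126.7 CPM per kb, and the spread between genes is narrower in mutants.

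The 10 genes were also compared with the controls library by library. Relative to the mean of the controls, the median of the 10 genes was −0.44, −0.58, −0.53 and −0.69 log2 in mutant replicates 1 to 4. In mutant replicates 1, 2 and 3, 7 of the 10 genes were below every control, and in mutant replicate 4 there were 6. The 7 were not the same genes, as they included Llgl1 in replicate 1 and Patj in replicates 2 and 3. Above every control were 2, 1, 2 and 2 of the 10 genes in mutant replicates 1 to 4. These counts are given as a description, since the matching shares of all tested genes in single libraries were not determined. The lowest gene was Llgl2 in mutant replicates 1 and 4 (−1.68 and −1.64), Prkci in replicate 2 (−1.69) and Crb3 in replicate 3 (−1.64). The highest was Prkcz in mutant replicate 1 (0.38) and Llgl1 in the others (0.84, 0.76 and 0.61). Smarca4, on the same scale, was −1.58, −2.21, −1.59 and −1.32.

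When each library was left out in turn, the 5 called genes kept their direction, with values from −1.42 to −1.10 for Crb3, −1.29 to −1.10 for Prkci, −1.23 to −0.99 for Pard6b, −1.64 to −1.20 for Llgl2 and −0.70 to −0.58 for Scrib. Without any 1 of the 3 controls none of the 10 genes passed, with adjusted p from 0.0578 to 0.145 for the 5 genes (edgeR), and only 133 to 169 of all genes passed. Crb3 and Prkci passed without any 1 of the mutants. Pard6b did not pass without mutant replicate 3 (edgeR adjusted p = 0.0568). Llgl2 did not pass without mutant replicate 3 (0.0767) or 4 (0.0687), and Scrib did not without replicate 2 (0.0681), 3 (0.0689) or 4 (0.0694; edgeR adjusted p in each case). Without mutant replicate 1, 6 genes were lower and 1 was higher, in a fit that called 14% of all tested genes lower and 15.5% higher.

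**Figure D5:**
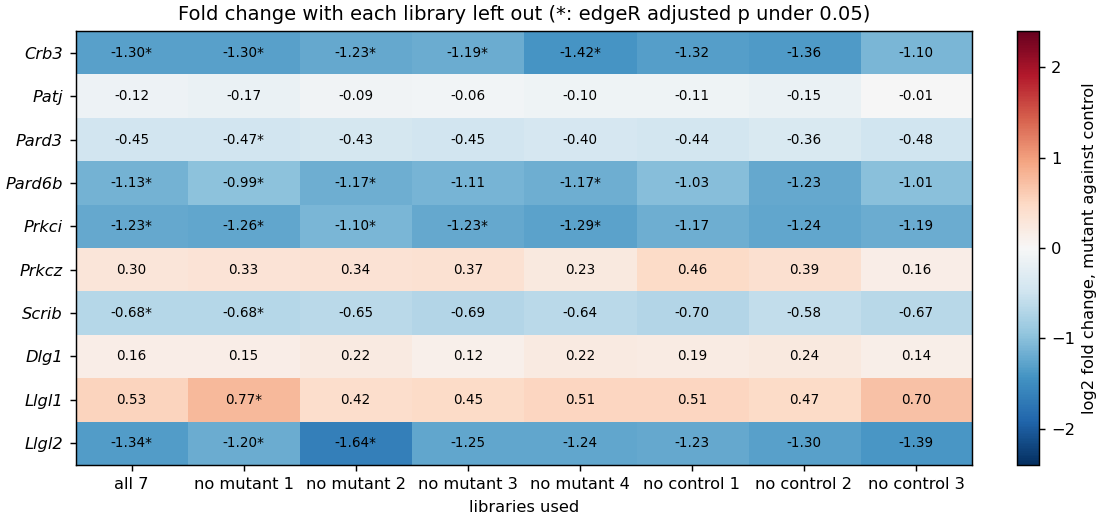
Each cell gives the log2 fold change of 1 gene (rows) with all 7 libraries or with 1 library left out (columns), coloured by value; an asterisk marks edgeR adjusted p under 0.05. The 5 called genes stay negative in every column and lose all asterisks in the 3 columns without a control.

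Scaled to Epcam reads in the same library in place of TMM, 4 genes were lower in every mutant than in every control, Crb3 (−0.93), Pard6b (−0.74), Prkci (−0.87) and Llgl2 (−1.02). Scrib (−0.30) and Pard3 (−0.07) overlapped. Patj (0.26), Prkcz (0.70) and Dlg1 (0.54) were then higher in every mutant, and Llgl1 (0.86) overlapped. Under the same scaling 7.86% of all tested genes were lower and 27% higher in every mutant than in every control. This scaling was chosen after the data were seen and has no test, and it sets Epcam itself to no change.

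The authors' deposited table, a DESeq2 comparison of the same genotypes in this series, gave all 10 genes the same sign and the same side of 0.05 as the edgeR fit. It is not an independent set of data, and the share of all genes called there was not determined. In the authors' deposited table the log2 fold changes were −1.22 ± 0.23 SE for Prkci (DESeq2 adjusted p = 8.2e-06), −1.29 ± 0.31 for Crb3 (0.000786), −1.33 ± 0.37 for Llgl2 (0.0040), −0.67 ± 0.19 for Scrib (0.00579) and −1.11 ± 0.33 for Pard6b (0.00935).

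Other genes of polarity, 44 in 5 lists, were counted for comparison, and 39 of them were tested. Of these 4 were lower and 2 higher, 15.4% called against 11.5% of all tested genes, and their median log2 fold change was −0.14. Without mutant replicate 1 there were 6 lower and 4 higher, against 29.5% of all genes called. Without any 1 of the controls none passed (edgeR), without mutant replicate 2 only Mark4, Mpp5 and Ywhaq passed, and without replicate 3 or 4 only Mark4 and Ywhaq. Of the Crumbs partners, 1 of 4 tested was lower, Mpp5 (above), beside 6.18% of all tested genes. For the counts that follow, 31% of all tested genes had an unadjusted p under 0.05 (edgeR), and DESeq2 called 23.4%. None of 6 Par partners passed with edgeR, while 2 had an unadjusted p under 0.05 and DESeq2 called the same 2 (Rac1 lower and Pard6a higher). The most abundant per length, the GTPase Cdc42 that binds Pard6, had 347 to 573 CPM in mutants against 360 to 490 CPM (0.09 ± 0.25 SE, edgeR adjusted p = 0.841). None of 7 tested Scribble partners passed with edgeR, while 2 had an unadjusted p under 0.05 and DESeq2 called the same 2 (Dlg3 lower and Vangl2 higher). Erbin, a scaffold related to Scrib and the most abundant per length, was at −0.03 ± 0.25 SE (edgeR adjusted p = 0.951). The median of that list was 0.40, above the median of all genes, while the 4 Scribble module members had a median of −0.26.

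Of the 14 genes for the Par-1 kinases, Par-4 (Stk11) with its partners and the 14-3-3 proteins, 1 was lower and 2 were higher, beside 6.18% and 5.37% of all tested genes. DESeq2 called Mark2 lower as well, with 11.2% of all tested genes called lower. Mark2, also a Par-1 kinase, was just over the threshold (−0.68, edgeR adjusted p = 0.0501), and passed with the DESeq2 size factors in edgeR (0.0484), limma-voom (0.0447) and without mutant replicate 1 (0.0361, adjusted p in each case). Mark4, a Par-1 kinase that phosphorylates microtubule-associated proteins, fell to 33.2 to 48.8 CPM in mutants, against 89.9 to 92.6 CPM (−1.14 ± 0.19 SE, edgeR adjusted p = 0.0158). Strada, the pseudokinase partner of Stk11, rose to 13.6 to 18.6 CPM, against 8.18 to 10.6 CPM (0.87 ± 0.22 SE, edgeR adjusted p = 0.0468). Ywhaq, encoding 14-3-3 theta, rose to 109 to 157 CPM, against 61.2 to 68.5 CPM (1.06 ± 0.18 SE, edgeR adjusted p = 0.0165), but shares 23.9% of its words with other loci, pseudogenes among them, and is uncertain. With unstranded counts neither Strada nor Ywhaq passed. Strada also did not pass without the filter on low counts (edgeR adjusted p = 0.131).

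Of 8 genes for the apical domain and its traffic, 2 were lower and none was higher with edgeR and with DESeq2. Of all tested genes, 6.18% were lower and 5.37% higher with edgeR, and 11.2% and 12.2% with DESeq2. At an unadjusted p under 0.05 there were 3 lower and 0 higher (edgeR), beside 14.6% and 16.4% of all tested genes. Ezrin (Ezr), which ties apical membrane proteins to actin, fell to 1205 to 1480 CPM, against 2084 to 2640 CPM (−0.83 ± 0.20 SE, edgeR adjusted p = 0.0403). It did not pass with upper-quartile (−0.69, adjusted p = 0.0567) or total count scaling (−0.48, adjusted p = 0.113) or without the filter on low counts (−0.87, adjusted p = 0.0718; edgeR in each case). Rab11fip1, an effector of Rab11 in recycling to the apical surface, fell to 524 to 854 CPM, against 1305 to 1780 CPM (−1.21 ± 0.24 SE, edgeR adjusted p = 0.0250). The median of this list was −0.45.

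The genes most like the called polarity genes over the 7 libraries were found by distance between profiles of log2 CPM relative to the control mean, among 10690 genes with a mean of at least 5 CPM. Nearest to Crb3 were Camsap3 (−1.27) and Rassf6 (−1.23), to Pard6b Ppp1r2 (−1.11) and Crybg1 (−1.08), and to Prkci Trio (−1.26) and Atf5 (−1.15). Nearest to Scrib were Kansl3 (−0.65) and Wdr91 (−0.65), and to Llgl2 Gm45053 (−1.41) and Midn (−1.26). The values are log2 fold changes, and the smallest distance was that between Prkci and Trio (0.144).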

How the data were processed

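Per the labels' protocols, uteri were minced and digested, epithelial cells were selected magnetically with an EpCAM antibody, and directional mRNA libraries were made with a KAPA kit. In the processing notes of the submitters the tools were STAR with the mm10 build, DESeq2, FastQC, cutadapt and Trim Galore, with no version stated. The authors deposited whole-number counts of reads per gene, not normalized, for each library. The reverse-strand column was used, which held 94.8% to 95.6% of stranded gene reads. Reads counted for no gene (unmapped 3.90% to 6.70%, multimapping 8.45% to 11.2%, no feature 10.5% to 14.7%, ambiguous 0.827% to 1.29%) stayed out. From the authors' deposited comparison table, log2 fold changes, their standard errors (score) and adjusted p-values are quoted for the 10 genes. Of 53379 gene IDs, 53274 matched GENCODE M21 (GRCm38).

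Genes kept by filterByExpr were tested in R 4.3.3 with edgeR 4.0.16 (TMM, quasi-likelihood F test, genotype as the only term, two-sided, Benjamini-Hochberg over 14610 genes, threshold 0.05); standard errors and 95% intervals come from that fit. limma 3.58.1 and DESeq2 1.42.0 served as alternatives. Ratios used 0.5 added reads and an exact permutation test. The p-values cover only the spread among these 4 mice and 3 pools, and whether any pools share mice is not stated. No libraries agreed within sampling noise (lowest chi-square per degree of freedom 54.9). The 10 genes and the lists were chosen with earlier results of these data known. Named genes were the 10, Smarca4, Epcam and Cdh1, every partner in the lists past the threshold or otherwise the list's most abundant per length, and for each called gene the 2 nearest in profile. Ltf, Cd3e, paralogues, called markers and partners that passed under another setting were named after their values were seen.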

Additional observations from a re-analysis of the deposited data

Results flagged for a closer look

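Llgl2 in mutant replicate 2 lay apart from the other mutants. On the log2 scale its gap to the nearest mutant was 0.928 of the range of the 4 mutants, above the limit of Dixon's test for 4 samples, which chance passes in about 1 of 20 groups. The level was 198 CPM there and 97.9 to 103 CPM in the other 3 mutants, against 280 to 354 CPM in controls. The same library had the lowest Prkci (152 CPM) and the lowest Smarca4 (56.7 CPM), and its Llgl1 level (111 CPM) was close to that of mutant replicates 3 and 4. Of the 10 genes and 2 ratios examined this was the 1 past the limit. The next was Llgl1, with mutant replicate 1 below the others (0.804).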

How the results depend on the processing

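The number of changed genes was 2734 with total count scaling, 3423 with DESeq2, 1057 without a low count filter and 133 to 4403 with 1 library left out. The number of polarity genes lower was 4 to 6 under every scaling, tool, filter and strand tried, and 0 to 6 with 1 library left out, while the number higher was 0 to 1 there. The median of all genes was 0.06 with TMM, 0.20 with the upper quartile and 0.41 with total counts as scaling. The share of calls that were higher was 46.5%, 62.6% and 80.5% in the same order, and 33.6% without the filter. Patj turned positive in the latter 2 scalings, at 0.019 and 0.23, and at 0.26 when scaled to Epcam, which was chosen after seeing the data. Both ratios kept their sign throughout (−1.68 to −1.36 and 1.71 to 2.09 with 1 library left out).

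Replicate numbers are shared between groups, but same-numbered libraries did not deviate together (correlations of −0.02, −0.36 and 0.16), and the labels give no shared animal or batch. With the replicate number as a block, 2 genes changed, 0 polarity genes were lower and none of their 39 tested partners passed (edgeR adjusted p from 0.142 to 0.211 for the 5 genes), and the ratios were −1.56 and 1.75 (exact permutation p = 0.25 for both). This fit leaves fewer residual degrees of freedom. The cause of the other shifts was not tested.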
